A study of Mus musculus with 13 samples.

Results

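CTCF peaks of wild-type mouse distal forelimb at stage E12.5 were set against the places where the cohesin subunits RAD21 and SMC1 were both called in the same tissue. A CTCF peak was counted as with cohesin when it overlapped by at least 1 bp an interval common to a RAD21 peak and a SMC1 peak. By this rule 14316 of 69495 CTCF peaks were with cohesin, which is 20.6%, and 55179 were without. The 3 ChIP-seq libraries, 1 per antibody, came from wild-type CD1 embryos, and the distal forelimb is the part of the limb bud that forms the hand. The labels give 10 minutes of fixation for CTCF, 25 minutes for SMC1 and either time for RAD21, so antibody and fixation cannot be told apart. As libraries that the rule did not use, CTCF in proximal forelimb of CD1 embryos and CTCF and RAD21 in whole forelimbs and hindlimbs of B6CBAF1 embryos, all wild type at the same stage, were added. The series also holds HoxD deletion mutants, which are not used here. The labels state, for all samples alike, that embryos came from crosses between carriers of mutant alleles. Dissected limb tissue mixes mesenchyme, ectoderm, muscle precursors, vessels and nerve, and peak lists hold no expression against which the label could be checked. Read depth is unknown, so a site without cohesin is one where no common peak was called. There are no replicates and no tests, and the 95% intervals given (Wilson, or for shares at equal strength a normal interval summed over strength groups) cover counting error only.

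CTCF is a DNA-binding protein whose row of zinc fingers reads a long motif that is not palindromic, so each bound motif has a direction. Cohesin is a ring that contains SMC1, SMC3 and RAD21. It is thought to enlarge chromatin loops until it meets CTCF, most often between motifs that point towards each other. In the limb, such loops bring Hox genes together with remote enhancers or keep them apart.

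The sequences below show what a CTCF motif looks like at sites with and without cohesin, in the HoxD cluster and at the strongest sites of each class. Each was read from the reference genome GRCm38.p6 (mm10), 5′ to 3′ on the strand of the motif, with the 19 bp motif in capitals and 5 bases on each side in lower case. The first 4 lines are the HoxD sites with cohesin, and the other 3 are HoxD sites with 1 subunit or neither that have a motif.
Evx2 to Hoxd13, outer site with cohesin (chr2:74661992-74662020, minus strand): cgaggAAAACAGATGGGGGCGCCAaatga
Evx2 to Hoxd13, inner site with cohesin (chr2:74663738-74663766, minus strand): cgcgcTTGGCGCTAGATGTCCCTGcaagt
Hoxd9 to Hoxd8, with cohesin (chr2:74702387-74702415, plus strand): gcattTGGCCACTAGAGAGCGCTGttgct
Hoxd3 and Hoxd4, with cohesin (chr2:74715913-74715941, plus strand): agcttTGTCCAGGAGGAGGCGCTGtagga
Hoxd11, SMC1 alone (chr2:74686472-74686500, plus strand): ttctaCAGCCACACGAGGGCGCGCtcatg
Evx2, neither subunit (chr2:74655518-74655546, minus strand): tcctgCTGCCGCTAGGGGGCGCCCcgggg
Hoxd10, neither subunit (chr2:74694220-74694248, minus strand): cttacTGATCTCTAGGCGGCGCTCgcggg

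The next set shows a pair of paralogous promoters of opposite class, a strong site with neither subunit, and 2 motif sequences that recur in repeats.
Kifc5b promoter, with cohesin (chr17:26916780-26916808, plus strand): agcagCAGCCGCTAGGTGGCGCTCgctcc
Kifc1 promoter, neither subunit (chr17:33890946-33890974, minus strand): agcagTATCCGCTAGGTGGCGCTCgctcc
Opalin intron, neither subunit (chr19:41071747-41071775, plus strand): aaagtCAGACAGCAGGGGGCGCTGccaca
Repeat copy nearest to Plekhb2, with cohesin (chr1:34867335-34867363, plus strand): ccccgAGGCCAGAAGAGGGCACCAgatac
Repeat copy nearest to Tyr, 1 subunit (chr7:87411616-87411644, minus strand): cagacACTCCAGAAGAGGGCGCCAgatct
Every one of these motifs passed the score threshold of 4.69 bits, the level that 5% of control windows passed. The inner Evx2 to Hoxd13 site, at 4.91 bits, lay just above it. The Kifc5b and Kifc1 stretches differed at 2 of 29 bases.

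With the lists as deposited, nearly all called cohesin peaks of the distal forelimb lay on CTCF peaks, while most CTCF peaks had no called cohesin. Of 14529 intervals common to RAD21 and SMC1, 99.2% overlapped a CTCF peak (99.0 to 99.3). RAD21 peaks alone overlapped CTCF in 96.6% of 16498 cases and SMC1 peaks in 94.0% of 23185. In the other direction, 20.6% of CTCF peaks were with cohesin (20.3 to 20.9). Neither subunit was called at 46411 CTCF peaks, which is 66.8%. A further 7238 CTCF peaks had SMC1 alone, 1517 had RAD21 alone, and 13 had both subunits at places that did not overlap each other. The subunits differed in how often they met: 87.9% of RAD21 peaks overlapped SMC1 and 62.5% of SMC1 peaks overlapped RAD21. Few sites lay near the edge of the rule. The overlap had a median of 244 bp and a minimum of 12 bp. At 4 sites it was 20 bp or less, and at 2 sites without cohesin a common interval lay within 20 bp. Both shares depend on the settings. With all 3 lists cut to the 16498 strongest peaks, 61.4% of CTCF peaks were with cohesin and 80.3% of common intervals lay on CTCF. When at least 50% of the CTCF peak had to be covered, the shares were 10.2% and 49.3%.

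Cohesin calls followed CTCF strength. Strength is the authors' −log10 q, ranked within the CTCF list and split into 10 equal groups. In the strongest group, with −log10 q of 162 to 375, 79.8% of CTCF peaks were with cohesin (78.8 to 80.7). In the next groups down the share was 61.5%, 37.5%, 15.8% and 5.22%, and in the weakest group, with −log10 q of 1.31 to 3.89, it was 0.532%. From the fifth group down it was at most 2.16%. Sites with cohesin had a median −log10 q of 142.6, against 77.8 at sites with 1 subunit and 11.04 at sites with neither. Neither subunit was called at 4.62% of the strongest group. SMC1 was called at 93.6% of that group and RAD21 at 81.6%. Depth is unknown, so less cohesin at weak CTCF sites and too few reads to call it there cannot be told apart.

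**Figure D1:**
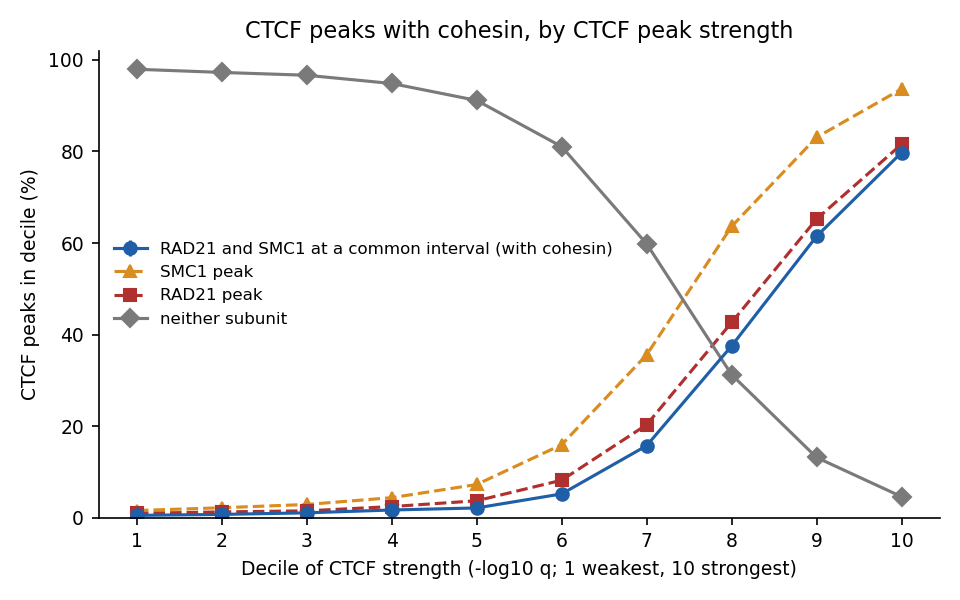
Share of CTCF peaks (y axis, %) with cohesin, with a SMC1 peak, with a RAD21 peak and with neither subunit, in each of 10 equal groups of CTCF strength (x axis); bars on the cohesin line are 95% Wilson intervals. The share with cohesin was 79.8% in the strongest group and 0.532% in the weakest.

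The RAD21 summit was displaced to one side of the CTCF motif, and the SMC1 summit lay close to its centre. Summit positions come from the authors' peak caller, and the sign gives the cohesin summit minus the CTCF summit. Along the genome the median distance of RAD21 from CTCF was 0 bp over the 14316 sites with cohesin. It was 12 bp at the 6641 sites whose motif lay on the plus strand and -12 bp at the 6653 on the minus strand, so the genome-wide median hides opposite offsets. Read along the motif, with 3′ positive, RAD21 lay 12 bp downstream of the CTCF summit (quartiles 0 and 23, n = 13294), and its summit was 3′ of the CTCF summit at 74.7% of sites. SMC1 lay at -4 bp (quartiles -16 and 9), with 40.4% of summits on the 3′ side. From the motif centre the medians were 20 bp for RAD21, 4 bp for SMC1 and 8 bp for CTCF itself. At the same sites RAD21 lay 15 bp downstream of SMC1 (quartiles 0 and 31). Most summits were close to CTCF: 94.6% of RAD21 and 95.3% of SMC1 summits lay within 50 bp. The 1022 sites with cohesin and no motif showed a median of 0 bp for both subunits.

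The RAD21 offset held in subsets and in another library. Per chromosome its median ran between 10 and 13.5 bp on the 20 chromosomes with at least 20 sites, and that of SMC1 between -7 and -2 bp. The SMC1 median moved with CTCF strength. It was -6 bp in the strongest group, -1 bp in the eighth and 0 bp in the seventh and sixth. In the same groups RAD21 lay at 11, 13, 14 and 17 bp. At promoters the RAD21 median was 10 bp over 943 sites, and between genes it was 12 bp over 6035. Whole-limb RAD21 peaks, from another strain and not used by the rule, lay 12 bp downstream at the same sites (n = 13146), with 82.5% of summits on the 3′ side. At CTCF sites without distal cohesin where whole limbs had a RAD21 peak, the median was 11 bp (n = 8290). RAD21 at sites where SMC1 was not called also lay at 11 bp (n = 1234), and SMC1 at sites where RAD21 was not called at -8 bp (n = 6610). The median is a few bases in size, while fragments were 200 to 500 bp long per the labels. RAD21 and SMC1 were each measured in 1 distal library, so the difference between subunits cannot be told apart from that between libraries or fixation times.

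**Figure D2:**
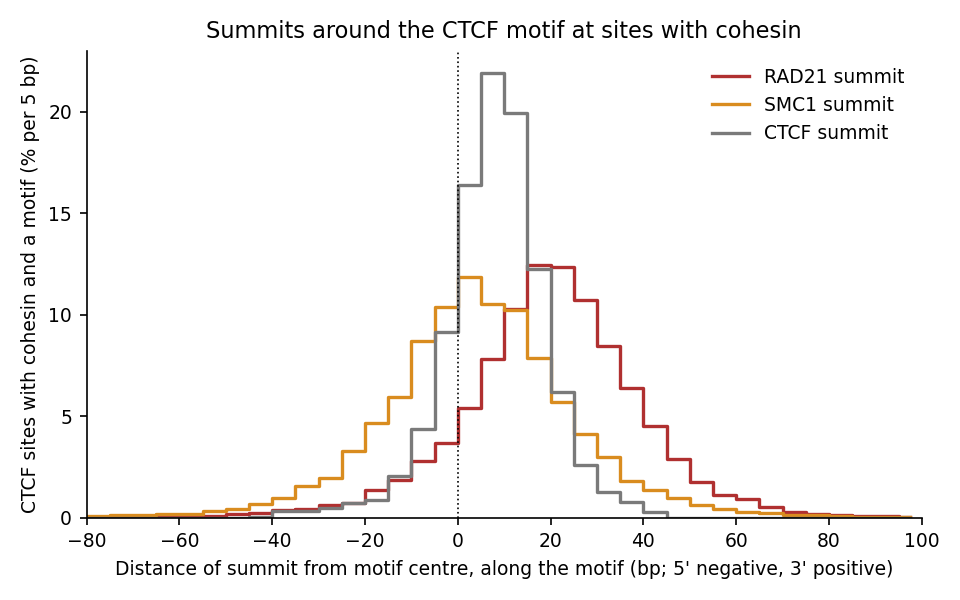
Position of RAD21, SMC1 and CTCF summits along the motif (x axis, bp from the motif centre, 3′ positive) at the 13294 CTCF sites with cohesin and a motif, as a share of sites per 5 bp (y axis). The RAD21 curve is shifted to the 3′ side, with a median of 20 bp, while SMC1 has a median of 4 bp and CTCF of 8 bp.

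CTCF sites with cohesin lay at promoters less often than sites of equal strength without it. Positions were annotated with GENCODE release M21, and a promoter is the region within 1 kb of a protein-coding transcription start site (TSS). Taken as they stand, 7.36% of sites with cohesin and 9.69% of sites without were at promoters. This comparison mixes strengths, so the shares were also averaged over the 10 strength groups with the weights of sites with cohesin. At equal strength 7.36% of sites with cohesin were at promoters (6.93 to 7.78), against 15.9% of sites with 1 subunit (14.8 to 17.0) and 29.6% of sites with neither (27.3 to 31.9). Within the strongest group the share was 9.60% with cohesin and 49.5% with neither subunit, and the median distance to a coding TSS was 17319 bp with cohesin and 1108 bp with neither. In the 3 strongest groups together the distance was 20664 bp with cohesin and 12821 bp without. Sites between genes went the other way, with 45.5% of sites with cohesin and 29.2% of sites with neither at equal strength. Introns held 40.6% and 33.3%, and coding exons 1.49% and 2.35%. Taken as they stand, introns held 40.6% and 44.4%, so the order for introns depends on the weighting. Where the motif stood at a promoter it pointed along the gene at 58.4% of sites with cohesin (55.2 to 61.6) and 56.1% of sites without (54.4 to 57.8), and these intervals overlap.

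Base composition moved with the promoters. At equal strength, 21.9% of sites with cohesin had at least 4 CpG in the 50 bp on each side of the summit. Of sites with neither subunit, 36.9% did. Taken as they stand the shares were 21.9% and 12.7%, so the order depends on the weighting. For the strongest group the mean was 3.06 CpG with cohesin and 5.70 with neither. The CpG count was not separated from promoter position, and its part in the result was not tested.

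**Figure D3:**
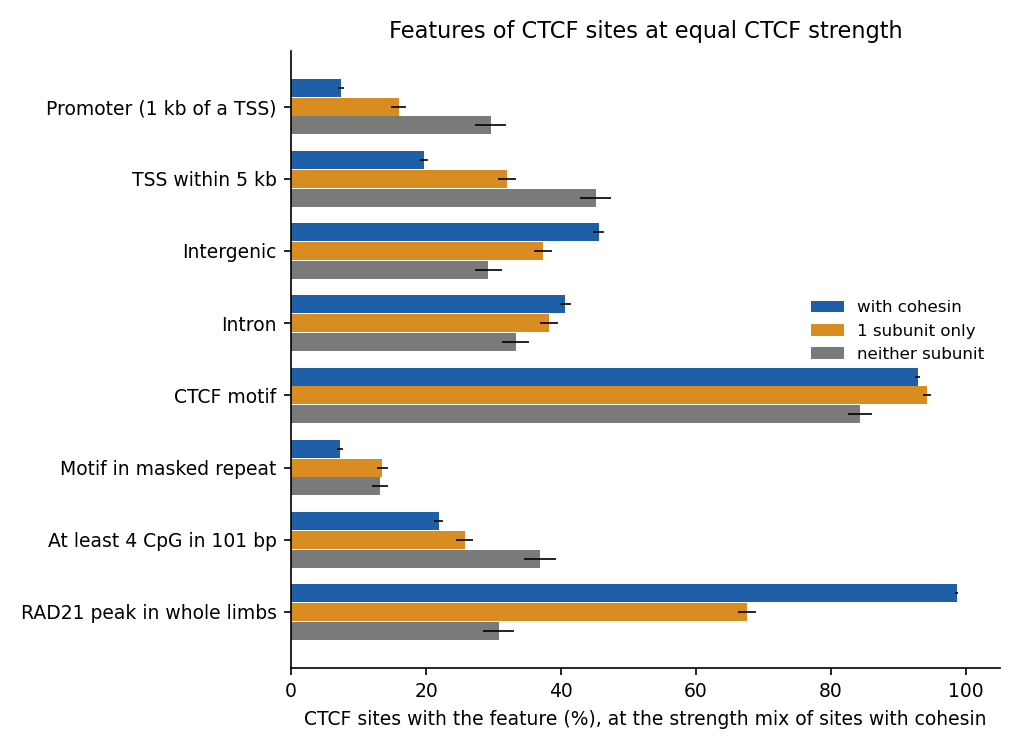
Share of CTCF sites (x axis, %) with each feature (y axis) among sites with cohesin, with 1 subunit only and with neither subunit, at the strength mix of sites with cohesin; bars are 95% intervals for counting error. Promoters made up 7.36% of sites with cohesin and 29.6% of sites with neither, and intergenic sites 45.5% and 29.2%.

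At equal strength the CTCF motif was about as common at sites with cohesin as at sites with 1 subunit and less common at sites with neither, and weak sites with cohesin mostly lacked it. The matrix of 19 bp was derived from the 2000 strongest distal CTCF summits, most of which were with cohesin, so it may favour that class. A motif stood within 50 bp of the summit at 92.9% of sites with cohesin and 68.8% of sites without. At equal strength the shares were 92.9% with cohesin (92.5 to 93.2), 94.2% with 1 subunit (93.6 to 94.8) and 84.3% with neither (82.6 to 86.1). Of the strongest group, 97.6% of sites with cohesin and 82.6% of sites with neither had a motif. The order turned round among weak peaks. In the weakest group 8.11% of the 37 sites with cohesin had a motif, against 21.4% of the 6808 with neither, and in the next group 7.69% of 52 against 47.1% of 6759. The median motif score over all sites was 17.5 bits with cohesin and 10.7 bits with neither.

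CTCF motifs inside repeats were with cohesin less often than other motifs of the same strength group, up to the strongest. Repeats are the soft-masked parts of the reference genome, which does not name their family. In mouse, short interspersed repeats of the B2 family are known carriers of CTCF motifs. The motif lay in masked sequence at 7.21% of sites with cohesin and 27.5% of sites without, and at equal strength at 7.21% and 14.3%. In the eighth strength group 19.3% of 1152 motifs in repeats were with cohesin (17.1 to 21.6), against 42.1% of 5283 motifs outside repeats (40.8 to 43.5). In the ninth group the shares were 48.4% and 64.0%. In the strongest group they were 78.3% (74.2 to 81.9) and 80.7% (79.7 to 81.7), which overlap. Motifs in repeats were somewhat weaker within a group, with a median −log10 q of 83.4 against 87.5 in the eighth.

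Some motif sequences repeated across the genome were with cohesin less often than their strength gives, and others were too weak to tell. A motif sequence shared by at least 2 sites was found at 18.6% of 12854 motif sites with cohesin and 38.7% of 36897 without. The sequence ACTCCAGAAGAGGGCGCCA, shown above in the copy near Tyr, stood at 314 CTCF sites with a median −log10 q of 19.2, and none was with cohesin. That count of 0 allows a share of up to 0.955%, while sites of the same strengths would give 3.78%. No whole-limb RAD21 peak met any of the 314 sites. ACTCCAGAAGAGGGCGTCA stood at 212 sites, again with none with cohesin, which allows up to 1.42% where strength gives 0.926%. ACACCAGAAGAGGGCATCA stood at 646, with 1, where strength gives 1.39%. The related AGGCCAGAAGAGGGCATCA was with cohesin at 34 of 601 sites, against 9.98% by strength, and AGGCCAGAAGAGGGCACCA at 18 of 364, against 11.5%. All copies of these sequences lay in masked repeats. Reads of 50 bases cannot always be placed in repeats, in any of the libraries, and the part of this in the result was not tested. These sequences were chosen for their number of copies after the data were seen.

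Neighbouring CTCF sites with cohesin changed their relative orientation with distance, while those with neither subunit did so far less. Consecutive motif sites of a class were called convergent when the left motif pointed right and the right one left, and divergent in the reverse case. Among pairs with cohesin 1 to 10 kb apart, 3.98% of 1356 were convergent and 35.3% divergent. At 10 to 30 kb the shares were 10.1% and 41.0%. The shares drew closer at 30 to 100 kb, with 24.6% convergent and 31.0% divergent among 3950 pairs. At 100 to 300 kb 36.5% were convergent and 21.3% divergent, and at 300 to 1000 kb 45.0% (42.6 to 47.4) were convergent and 14.3% (12.7 to 16.1) divergent among 1696. With neither subunit, convergent pairs made up 22.4% at 1 to 10 kb, 24.2% at 30 to 100 kb and 27.1% (24.9 to 29.4) at 300 to 1000 kb, and divergent pairs 23.6%, 24.3% and 22.2%.

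Strong sites without cohesin, with 1 subunit or neither, were set beside this. In the 3 strongest groups, where the median −log10 q was 153.6 with cohesin and 107 without, sites without cohesin had 21.4% convergent pairs at 1 to 10 kb and 24.8% (22.6 to 27.2) at 300 to 1000 kb. In the classes drawn by whole-limb RAD21, which the rule did not use, convergent pairs were 8.05% at 1 to 10 kb and 42.4% (39.99 to 44.9) at 300 to 1000 kb. Pairs are counted between sites of the same class, so sites of the other class can lie between them.

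**Figure D4:**
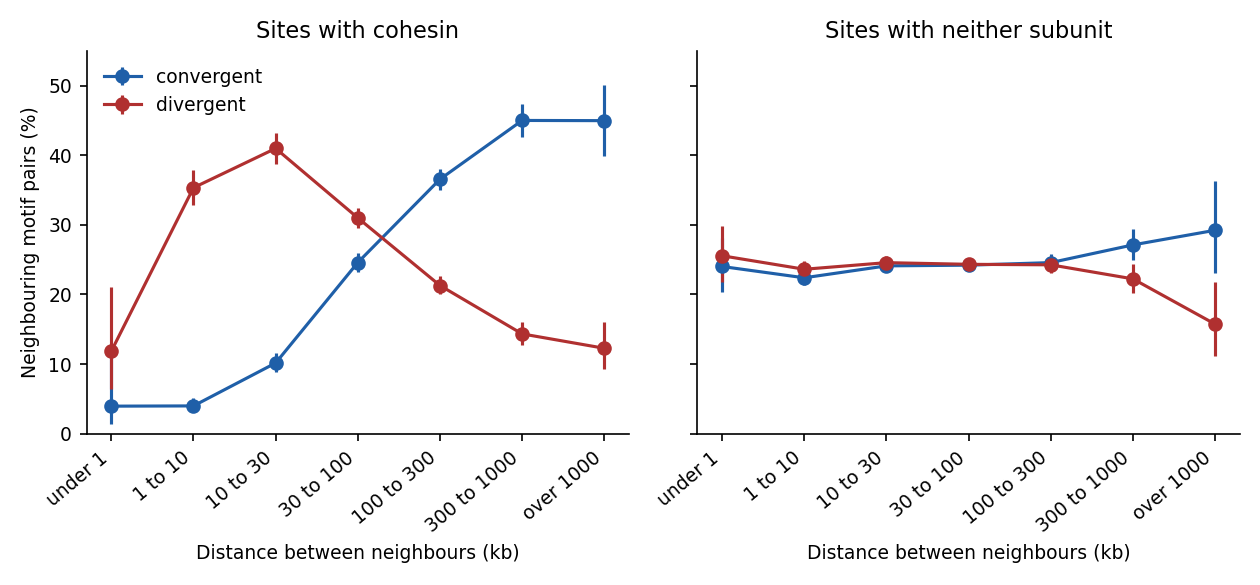
Share of neighbouring motif pairs (y axis, %) that were convergent or divergent, by distance between the neighbours (x axis, kb), for CTCF sites with cohesin (left) and with neither subunit (right); bars are 95% Wilson intervals. With cohesin the convergent share was 3.98% at 1 to 10 kb and 45.0% at 300 to 1000 kb, while with neither subunit it was 22.4% and 27.1%.

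Sites with cohesin were spread along the chromosomes with little clustering beyond that of strength. From a site with cohesin the median distance to the next such site was 81575 bp (quartiles 28564.5 and 191543). Between sites without it was 22526.5 bp. These gaps are counted within a class, and there were 14316 sites with cohesin against 55179 without. The difference in gap therefore follows largely from the numbers of sites. The nearest CTCF summit of any class lay 8321 bp away at sites with cohesin and 9235 bp away at sites without. After a left neighbour with cohesin, 23.8% of sites were with cohesin (23.1 to 24.5), against 19.8% after a neighbour without (19.4 to 20.1). The strengths of these sites alone would give 23.1% and 20.0%. The longest run of consecutive sites with cohesin held 9 sites over 285.6 kb of chromosome 3, at Pdlim5, Gbp5 and Gbp3, and the next held 8 over 63.8 kb of chromosome 2 at Polr3k. These genes were named after the values were seen. The median CTCF −log10 q was 142.8 in the longest run and 23.8 in the Polr3k run. In the strength group that holds 23.8, 5.22% of CTCF peaks were with cohesin, so the Polr3k run is an exception to the genome-wide shares above. Runs without cohesin were longer, with 185 sites on chromosome Y and 110 on X, at a median −log10 q of 3.35 and 5.49. By chromosome the share with cohesin ran from 17.2% on chromosome 5 to 23.2% on 18 among the autosomes. It was 11.1% on X, where strength gives 12.6%, and 6.70% on Y, where strength gives 3.42%.

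The strongest CTCF sites with cohesin lay at promoters, in introns and between genes. The class and the ranking chose these sites, so their values are a description. Of the first 10 with a coding TSS within 50 kb, those named here stood at Mrgprd (−log10 q 354), Fgf20 (344), Hif1an (344), Enah (342), Acbd4 (336), H2-DMa (335), Tpcn2 (332), Rpusd4 (328) and Kifc5b (328), and 3 of the 10 were promoter sites, where promoters made up 9.60% of sites with cohesin in the strongest group. The Mrgprd site, without a motif, was the last CTCF peak of chromosome 7. On most chromosomes the last peaks of the 3 lists ended close together near the chromosome end. On chromosome 1, for example, the last CTCF peak ended at 195372118 of 195471971 bp. Whether the signal at such end peaks is CTCF binding was not tested. Hif1an hydroxylates the hypoxia factor HIF and Enah regulates actin filaments. Cohesin strength varied widely among them. RAD21 had a −log10 q of 332 at Rpusd4 and 93.9 at Enah, against 4.13 at Kifc5b. The Rpusd4 site had no motif, and its value was the highest of the distal RAD21 list. SMC1 had 265 at Rpusd4, 106 at Enah and 15.5 at Kifc5b. Kifc5b and Kifc1 are kinesin paralogues whose promoters carried the near-identical motifs shown above. CTCF had a −log10 q of 328 at Kifc5b and 308 at Kifc1, and neither subunit was called at Kifc1. In whole limbs RAD21 had 27.1 at Kifc5b and no peak at Kifc1. Copies this alike can share reads, so the split between them is uncertain.

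The strongest CTCF sites with neither subunit were mostly at promoters. By the same rule they stood at Dus3l (−log10 q 344), Kifc1 (308), Exd1 (306), Snrpd1 (299), Sh3gl1 (297), Rps3a1 (293), Specc1 (287), Adck5 (287), Kptn (287) and Opalin (283). Dus3l modifies transfer RNA, Kifc1 is a kinesin of the mitotic spindle, Snrpd1 is a core protein of the spliceosome, Rps3a1 is a ribosomal protein, and Sh3gl1 is an endophilin of membrane traffic. Of the 10, 8 had their summit within 300 bp of the TSS, the Dus3l site lay 1223 bp from it, and the Opalin site lay in an intron. Promoters made up 49.5% of sites with neither subunit in the strongest group. Opalin is a membrane protein of oligodendrocytes. Of all CTCF peaks whose −log10 q differed from theirs by at most 1.2-fold, 84.2% to 85.9% were with cohesin and 3.32% to 4.31% had neither subunit. A motif stood at 9 of the 10, all but Kptn, against 82.6% of sites with neither subunit in the strongest group. The whole-limb list had a RAD21 peak at 5 of them, with a −log10 q of 3.12 at Dus3l, 19.7 at Snrpd1, 12.8 at Sh3gl1, 3.79 at Rps3a1 and 6.06 at Kptn. Of all sites with neither subunit in the strongest group, 37.4% had a whole-limb RAD21 peak.

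Cohesin was called at 4 of the 11 distal CTCF sites between 10 kb before Evx2 and 10 kb beyond Hoxd1. The share of 20.6% over all CTCF peaks mixes strengths. In the HoxD locus list, which adds flanking genes, 4 of 19 sites were with cohesin, against 4.90 by strength, so no excess is read from this. The HoxD cluster holds homeobox genes that pattern the limb, with Hoxd13 needed for digits and Evx2 a homeobox gene beside it. Both subunits were called at the outer site between Evx2 and Hoxd13 (74661505 to 74662187 on chromosome 2), with a −log10 q of 27.8 for CTCF, 5.80 for RAD21 and 4.95 for SMC1, and at the inner site (74663531 to 74664009), with 138.8, 22.8 and 19.8. They were also called between Hoxd9 and Hoxd8 (74702157 to 74702638), with 187.9, 14.3 and 6.73. The strongest RAD21 and SMC1 peaks at these 11 sites, at 62.7 and 36.7, lay at the site within Hoxd3 and Hoxd4 (74715668 to 74716388, CTCF 152.6), in an annotated exon outside coding sequence and UTRs. The 2 Evx2 to Hoxd13 sites had minus-strand motifs and the other 2 plus-strand motifs, so the middle pair of the 4 diverged. Of all CTCF peaks of like strength, 3.78% were with cohesin for the outer Evx2 to Hoxd13 site, 64.0% for the inner one, 77.2% for the Hoxd9 to Hoxd8 site and 68.4% for the Hoxd3 and Hoxd4 site.

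The other 7 HoxD sites had 1 subunit or none. RAD21 alone was called between Hoxd13 and Hoxd12 (74672938 to 74673320), with a −log10 q of 112 for CTCF and 10.98 for RAD21, and at the promoter of Hoxd10 (74691611 to 74691978), with 35.3 and 4.19. Neither of these had a motif. SMC1 alone was called in Hoxd11 (74686220 to 74686742), with 181.9 for CTCF and 3.47 for SMC1. Neither subunit was called in the UTR of Evx2 (74655286 to 74655747, CTCF 145.2), where 66.1% of 6432 peaks of like strength were with cohesin and 10.4% had neither. The same held in the coding exon of Hoxd10 (74694018 to 74694495, CTCF 114.9), where 54.0% of 5963 like peaks were with cohesin and 17.7% had neither. A weak site in the coding exon of Evx2 (CTCF 7.09) and one 12462 bp from its TSS (1.88) also had neither, as did 96.8% and 97.4% of like peaks. Whole limbs had a RAD21 peak at the Evx2 UTR site (−log10 q 9.52), between Hoxd13 and Hoxd12 (41.7) and at the Hoxd10 promoter (49.6). They had none at the Hoxd10 coding exon, in Hoxd11 or at the weak Evx2 sites.

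**Figure D5:**
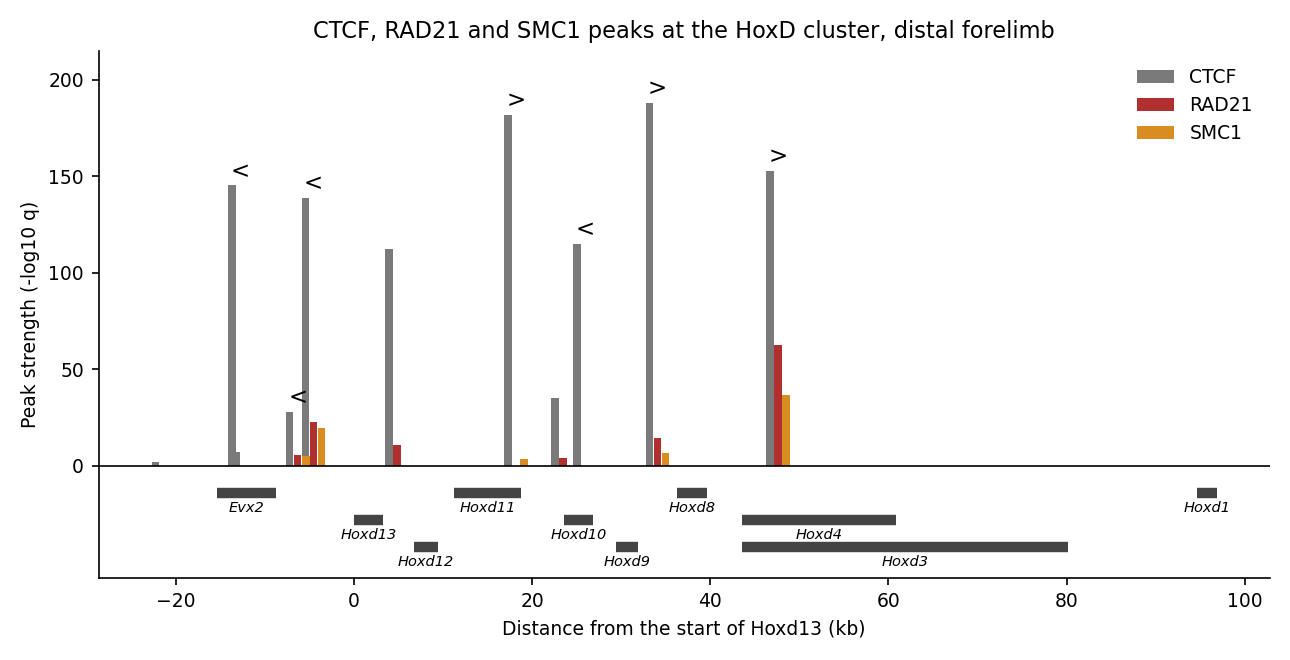
Strength of CTCF, RAD21 and SMC1 peaks (y axis, −log10 q) at the CTCF sites of the HoxD cluster, by distance from the start of Hoxd13 (x axis, kb), with genes drawn below and arrowheads for the strand of the motif. Bars of the antibodies are set side by side at each site, and strengths are comparable within an antibody only; the highest RAD21 bar, 62.7, stands at Hoxd3 and Hoxd4.

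Over all limb genes, the share of CTCF sites with cohesin was close to that of other genes. Sites were assigned to a gene within its body and 10 kb on each side. In 10 lists of 146 limb genes, 98 of 408 CTCF sites were with cohesin, which is 24.0% (20.1 to 28.4). Among all protein-coding genes, 20.7% of 46097 sites were. The strengths of the sites would give 24.3% for the limb lists and 22.1% for all coding genes. Of the 146 genes, 135 had a CTCF site of any kind, against 79.9% of 21911 coding genes. At least 1 site with cohesin was found in 83 of the 146, against 38.3% of coding genes, and neither subunit was called at 247 of the 408 sites, against 65.8% of sites at all coding genes. Nothing particular to the lists is read from this.

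Hox clusters and signalling genes held sites of both kinds. The HoxA cluster had 5 of 14 sites with cohesin, against 4.64 by strength. Hoxa3, a homeobox gene of the anterior part of the cluster, had 3 of 5, against 2.80 by strength. Hoxa13, which with Hoxd13 is needed for digits, had 1 of 5, against 0.922. In the HoxB cluster 3 of 9 sites were with cohesin, against 3.89 by strength. The strongest site near Hoxb9 had neither subunit at a CTCF −log10 q of 203. In the HoxC cluster 2 of 4 sites were with cohesin, against 1.603 by strength. None of the 4 had neither subunit, at a median −log10 q of 111.7. In the strength group that holds 111.7, 13.2% of all CTCF peaks had neither. The HoxD locus list, with its flanking genes, had 4 of 19, against 4.90 by strength. In Hedgehog signalling, the pathway that sets the number and identity of digits, 16 of 61 sites were with cohesin, against 13.9 by strength. Lmbr1, whose intron holds the limb enhancer of Shh, had 2 of 8, against 1.203 by strength. Sufu, an inhibitor of Gli factors, had 3 of 8, against 2.95. Gli1 and Gli2, transcription factors of the pathway, had 2 of 7 and 1 of 6, against 2.45 and 0.816 by strength. The strongest site of Hand2, a factor upstream of Shh in the limb bud, had neither subunit at a −log10 q of 155.

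Distal patterning genes had 18 of 74 sites with cohesin, against 17.3 by strength. Fmn1, a formin gene beside the BMP antagonist gene Grem1 whose regulatory elements it holds, had 5 of 11, against 3.58 by strength. Lmx1b, the dorsal limb factor, had 2 of 9, against 3.55. All 6 sites of Bmp7, a bone morphogenetic protein, had neither subunit, with strengths up to 34.4, and by strength 0.145 would be with cohesin. Genes of the apical ectodermal ridge, the epithelium that drives outgrowth, had 7 of 25, against 8.97. There Fgf8 had 1 of 3, against 1.42 by strength, and Fgf17 2 of 5, against 2.07. The strongest site near Fgf17, at the promoter of Dmtn, had neither subunit at 181. Genes of proximal limb and limb identity had 19 of 71, against 14.8. Tbx2, a T-box repressor, had 5 of 9, against 3.27 by strength.

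Cartilage and joint genes had 23 of 104 sites with cohesin, against 26.1 by strength. Sox5, a partner of Sox9 in cartilage, had the most sites of any gene in the list and 1 of 27 with cohesin, against 1.92 by strength. Sox6 had 2 of 11, against 2.24 by strength. Wnt9a, a joint signal, had 4 of 6, against 2.34, and Gdf5, a joint marker, 2 of 2, against 1.595. At Col2a1, the main cartilage collagen, all 4 sites had neither subunit, up to a −log10 q of 113, and strength gives 0.658 with cohesin. The strongest of these lay nearest to the TSS of Tmem106c. In the muscle list 1 of 27 sites was with cohesin, at Mef2c, against 2.84 by strength. None was called with cohesin among the 5 sites of Pax7, a factor of muscle precursors, or the 3 of Myod1, a master factor of muscle, where strength gives 0.194 and 0.437. In tissue, fewer cells of a type and less binding per cell cannot be told apart.

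In wild-type lists that the rule did not use, the classes of equal strength differed more for RAD21 than for CTCF. Among the strongest sites, CTCF of proximal forelimb was called at all sites of either class. At equal strength proximal CTCF covered 99.8% of sites with cohesin and 99.3% of sites with neither subunit, and whole-limb CTCF 98.2% (98.04 to 98.4) and 96.4% (96.1 to 96.6). Over sites of all strengths proximal CTCF covered 99.8% with cohesin and 74.3% with neither, and whole-limb CTCF 98.2% and 38.5%. Whole-limb RAD21 was called at 98.6% of sites with cohesin (98.4 to 98.8), 67.5% of sites with 1 subunit (66.2 to 68.8) and 30.7% of sites with neither (28.5 to 33.0), at equal strength. Over all 69495 CTCF sites it was called at 35.3%. In the strongest strength group 99.4% of sites with cohesin and 37.4% of the 321 sites with neither had a whole-limb RAD21 peak. The whole-limb library differs in strain and limb parts, and its list of 33707 RAD21 peaks is longer than the distal list.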

How the data were processed

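Peak lists of 6 wild-type ChIP-seq libraries were used, of 11 peak lists in all. Per the submitters' processing notes, reads were handled with cutadapt, Bowtie2 and MACS2 on build mm10, and the versions are not given there. Each deposited list gives regions with a score, which in the deposited files is 10 times the −log10 q as a whole number, the authors' fold enrichment as a ratio over background, the −log10 p and −log10 q computed by the authors, and the offset of the summit. Every list starts at a q of about 0.05. Depth and the alignment settings are not given in the sources used here, so −log10 q was ranked within a list, except where sites with RAD21 and SMC1 above CTCF were counted.

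Where 1 region had several rows, the strongest summit stood for it, and only the 19 autosomes, X and Y were used. All positions count from 1 on GRCm38.p6. A motif of 19 bp was aligned without a prior from the 2000 strongest distal CTCF summits, started from the 8-base word most enriched over control windows 2 kb away, and the best match within 50 bp of each summit was kept if it scored at least 4.69 bits. Shares at equal strength weight 10 strength groups, and shares given by strength use 20 bins. Overlaps, motif strands and signed distances were tested on simulated data. Python 3.11.15, numpy 2.4.6 and pandas 2.3.3 were used. No test was run, since each antibody has 1 library per tissue.

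The members and the 15 gene lists were chosen with earlier results of these data known. Sites named are all those from Evx2 to Hoxd1, the 10 strongest of each class with a coding TSS within 50 kb, and in each list up to 4 members with the most sites and up to 2 with the strongest site without a subunit, with a few more genes of the lists named after their values were seen. Repeats, whole-limb RAD21 orientation, recurring motif sequences and sites where cohesin exceeded CTCF were added after the data were seen. No sequence of chromosome 18 is printed, and counts of recurring motif sequences leave that chromosome out. A few genes that the rule selects are not reported here.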

Additional observations from a re-analysis of the deposited data

How the results depend on the processing

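The signs of the differences and offsets listed here were kept under the alternatives run for each, while many values moved, and the majority of CTCF peaks without cohesin turned into a minority with lists of equal length. The share of CTCF peaks with cohesin, 20.6% as reported, was 17.2% when peaks under a −log10 q of 10 were dropped from the 3 lists, 10.2% with 50% of the CTCF peak covered, 61.4% with lists of equal length and 21.0% on autosomes. It was 22.8% with a RAD21 peak alone, 31.0% with a SMC1 peak alone and 33.2% with either. The share of common intervals on CTCF, 99.2%, was under the same settings 99.8% (−log10 q), 49.3% (50% covered), 80.3% (equal length), 96.6% (RAD21), 94.0% (SMC1) and 92.6% (either), and 98.1% with summits within 200 bp. With a −log10 q of at least 10 the strongest group had 61.1% with cohesin, the promoter share with minus without cohesin at equal strength was -10.8 percentage points (-12.3 as reported), the motif difference 0.576 points (1.70), convergent pairs at 300 to 1000 kb 40.6%, the difference in whole-limb RAD21 26.9 points (46.1) and the limb genes' share 18.6%, for which all genes were not recomputed. With either subunit these were 95.4% for the strongest group, -16.1 points for promoters, 7.63 points for motifs, 57.6 points for whole-limb RAD21 and 39.5% for limb genes, and the SMC1 offset was -5 bp. Promoters within 5 kb gave -16.2 points, and motifs within 100 bp a motif difference of 0.899 points. The RAD21 offset was 12 bp in all 6 alternatives run for it. No paired analysis was possible because each antibody has 1 distal library and no replicate number pairs samples. Leaving out a replicate could not be run for the same reason. Unknown depth limits every absent call.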

Other observations

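Lists of other cell types and of genes used in all cells held sites with cohesin as well. Vessel and blood genes had 9 of 43 CTCF sites with cohesin, against 7.49 by strength. Flt1, a VEGF receptor, had 2 of 14, against 1.40, and Runx1, a blood stem cell factor, 1 of 8, against 1.09. Nerve and glia genes had 5 of 23, against 7.75 by strength. All 4 sites within 10 kb of Tubb3, a neuronal tubulin, had neither subunit, where strength gives 1.25 with cohesin. The strongest, with a CTCF −log10 q of 208, lay at the promoter of Mc1r, 122 bp from its TSS. Clustered protocadherins, whose alternative promoters bind CTCF, had 2 of 49, against 4.24. Housekeeping genes had 6 of 48, against 11.04, with none of 4 at Polr2a, the largest subunit of RNA polymerase II, where strength gives 0.403, and 1 of 6 at Hprt, a purine salvage enzyme, where it gives 0.832. Genes for CTCF, cohesin and its regulators had 10 of 55, against 13.0. Among these the strongest site of Nipbl, the cohesin loader, had neither subunit at a −log10 q of 221. Stag1, a cohesin subunit, had 2 of 8, against 1.02 by strength.

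At 161 of the sites with cohesin, RAD21 and SMC1 were both stronger than CTCF by −log10 q. This choice itself picks sites of weak CTCF. Their median CTCF −log10 q of 11.6, against 143.5 at the other sites with cohesin, is therefore no separate result. A motif stood at 5.59% of the 161 (2.97 to 10.3), against 93.9% of the other 14155 (93.4 to 94.2). Their summits lay in masked repeats in 62.1% of cases, against 8.34%. All sites with cohesin in the 4 weakest strength groups had a motif in 7.69% to 18.5% of cases and lay in repeats in 42.9% to 48.1%, so these shares were not separated from weak CTCF. Whole-limb RAD21 was called at 155 of the 161. Among the strongest sites, Rpusd4 had no motif and a −log10 q of 332 for RAD21, 265 for SMC1 and 328 for CTCF. Mrgprd, without a motif as well, had 297, 255 and 354. Its site was the last peak of chromosome 7 in all 3 lists, and the CTCF peak ended at 145341579 of 145441459 bp. On all other chromosomes but 4, 9 and Y the last peaks of the 3 lists likewise ended close to each other near the chromosome end. Strength depends on depth, which is unknown, so this comparison of antibodies is a description, and whether such sites arise without an antibody was not tested.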
